A study of Mus musculus with 14 samples.

Results

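The genes described here are those of the lysosome, the acidic compartment in which cells break down proteins, glycans and lipids. They comprise soluble hydrolases, proteins of the lysosomal membrane, 2 cofactors and the subunits of the proton pump. The set was made of 31 named genes and of every symbol beginning with Atp6v0, Atp6v1 or Atp6ap, and was measured in the anterior cortex of mice carrying the DG allele of Vcp. All 31 named genes and 26 pump symbols were found among the 19360 gene symbols of the deposited table. Of these 57 symbols, 53 reached a mean of 1 CPM (reads per mega-read counted in a library). Atp6v0c-ps2, a pseudogene, held 13353 summed reads against 13359 for its parent gene Atp6v0c and was left out, because reads of near-identical copies cannot be told apart. The remaining 52 genes were 21 pump genes (10 of the V1 sector, 8 of the V0 sector and 3 accessory proteins), 22 hydrolases, 7 membrane proteins and the cofactors Psap and Npc2. All 52 passed the filter on low counts.

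Vcp encodes an ATPase that pulls proteins out of complexes and aggregates, and the series title describes its mutation as an autosomal dominant hypomorph that impairs disaggregation of tau. Each library came from 1 mouse of the C57BL/6J strain aged 15 months. The 3 groups were wild type (WT, n = 4), mice with 1 DG copy and 1 wild-type copy (DG/+, n = 6) and mice with 2 DG copies (DG/DG, n = 4). The labels name no further allele or agent in any group, and they give neither sex nor litter.

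The lumen of the lysosome is kept acidic by the vacuolar H+-ATPase. Its cytosolic V1 sector splits ATP and turns a rotor, and its membrane-embedded V0 sector carries the protons. Most hydrolases work best at this low pH, and in the brain inherited loss of several of them causes storage disease with loss of neurons. Many lysosomal genes carry in their promoters the sequence TCACGTG, which the transcription factor TFEB and its relatives are known to bind.

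That sequence was looked for on both strands (its reverse complement is CACGTGA) in the RefSeq promoter windows, which run from 250 bases before to 50 bases after an annotated start on GRCm38.p6. A window was listed for 43 of the 52 genes. Of these, 15 (34.9%) held TCACGTG, against 6.68% of the 10190 tested genes with a window and 4.29% of all 27025 genes with a window. The shorter CACGTG, which every TCACGTG contains, was in 17 of the 43 (39.5%), against 11.5% of the tested genes and 8.09% of all genes. By class, TCACGTG was found for 8 of 20 hydrolases (40%), 3 of 6 membrane proteins, 3 of 7 V0 subunits, 1 of 6 V1 subunits and neither cofactor. Among the hydrolases it was in 3 of 7 proteases and 5 of 10 glycan-degrading enzymes, and in none of 3 lipid-degrading enzymes. Enzymes that take sugars off lipids, such as Gla, Glb1, Hexa and Galc, were counted as glycan-degrading here and below. The 15 genes were Ctsa, Ctsd, Gaa, Gla, Glb1, Lgmn, Naglu, Sgsh, Cln3, Lamp1, Mcoln1, Atp6v0b, Atp6v0d1, Atp6v0e and Atp6v1a. No window was listed for Asah1, Atp6ap1l, Atp6v0a2, Atp6v1b2, Atp6v1c1, Atp6v1g1, Atp6v1h, Ctsb and Npc1. A match is a description of the letters and not evidence of binding.

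The stretches printed next show how the motif lies in a membrane protein, in hydrolases and in both sectors of the pump. Each has 80 bases, is written 5′ to 3′ on the strand of the gene, and has the motif in capitals in either orientation. Lamp1 (chr8:13159081-13159160, plus strand, ending at the base before the start) held 4 copies. Atp6v0b (chr4:117887330-117887409, minus strand, ending at the base before the start) held 2 copies. Glb1 (chr9:114400992-114401071, plus strand), Gaa (chr11:119267785-119267864, plus strand) and Lgmn (chr12:102439100-102439179, minus strand) held 1 copy each. In Atp6v1a (chr16:44139348-44139427, minus strand) both orientations overlapped in the single run TCACGTGA. The starts used for Lgmn, Atp6v1a and Atp6v0b lay 636, 443 and 4 bases inside the outermost start of the gene in RefSeq.
Lamp1: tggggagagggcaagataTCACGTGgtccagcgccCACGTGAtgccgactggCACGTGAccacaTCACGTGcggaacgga
Glb1: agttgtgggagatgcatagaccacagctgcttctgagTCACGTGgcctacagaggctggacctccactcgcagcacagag
Gaa: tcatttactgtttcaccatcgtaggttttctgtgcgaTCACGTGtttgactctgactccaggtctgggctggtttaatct
Lgmn: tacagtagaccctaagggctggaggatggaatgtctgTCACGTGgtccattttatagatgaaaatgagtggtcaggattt
Atp6v0b: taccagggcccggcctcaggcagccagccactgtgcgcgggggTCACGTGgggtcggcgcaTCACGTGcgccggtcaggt
Atp6v1a: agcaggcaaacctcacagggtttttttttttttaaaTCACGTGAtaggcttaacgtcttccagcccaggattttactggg

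The libraries held 8.65 to 15.91 M counts (M for mega), and the 52 genes took between 0.777% (WT 4) and 0.962% (WT 1) of them. WT 4 was also the shallowest library, and it recurs below because it was the lowest of all 14 libraries in many of these genes. The 9 markers of excitatory neurons checked for the labelled cortex summed to at least 2532 CPM in every library. Choroid plexus markers summed to 2117 CPM in WT 3, 1208 CPM in DG/+ 1 and 1155 CPM in DG/+ 5, against 261 to 597 CPM elsewhere. Pituitary markers summed to 4202 CPM in DG/DG 1 and 102 CPM in DG/DG 2, against 0.64 to 24.1 CPM elsewhere. Values are also given without the 4 libraries over 1000 CPM of either marker set (WT 3, DG/+ 1, DG/+ 5 and DG/DG 1). This alternative was chosen after the data were seen, and DG/DG 2 stays in it. An earlier analysis of these data had set apart WT 2, WT 3, DG/+ 2 and DG/DG 1 instead, and values without those are given too, although WT 2 and DG/+ 2 did not stand apart in the sums above. In bulk tissue, fewer cells of a type and less RNA per cell cannot be told apart.

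The pump was first described by level, in CPM per kilobase of transcript (CPM/kb), which allows genes of different length to be compared. The median pump gene stood at 103 CPM/kb, against 22.2 CPM/kb for the hydrolases and 21.4 CPM/kb for the membrane proteins. Atp6v1b2 and Atp6v1a encode the B and A subunits that form the ATP-splitting ring, and Atp6v1e1 encodes a peripheral stalk subunit. Atp6v1b2 was at 236 ± 13.4 CPM/kb (SD over all 14 libraries) and Atp6v1e1 at 228 ± 16.3 CPM/kb, which did not differ beyond their spread. Next came Atp6v0e2 (a small V0 subunit) at 167 ± 10.1, Atp6v1a at 154 ± 13.8, the accessory protein gene Atp6ap1 at 150.4 ± 8.40 and the stalk subunit Atp6v1g2 at 147 ± 11.7 CPM/kb, each within the spread of its neighbour.

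Where the pump has several genes for 1 subunit, a single isoform held most of the level. Atp6v1b2 made up 99.99% of the summed B-subunit level in CPM/kb, Atp6v1c1 99.44% of C, Atp6v1e1 99.98% of E and Atp6v0d1 99.99% of d. The 4 genes Atp6v0d2, Atp6v1b1, Atp6v1e2 and Atp6v1g3, known from epithelia, bone or germ cells, were under the minimum with 6, 6, 7 and 2 reads summed over all libraries. Of the membrane a subunits, Atp6v0a1 held 91.2%, Atp6v0a2 5.16%, Tcirg1 (the a subunit known from osteoclasts, outside the symbol rule) 2.47% and Atp6v0a4 1.18%. The G subunit was the most mixed, with 82.1% from Atp6v1g2, the form enriched in neurons, and 17.9% from Atp6v1g1. The Atp6v1g2 share was 82.3% ± 1.56, 82.8% ± 1.62 and 80.8% ± 2.64 in WT, DG/+ and DG/DG (SD), so the genotypes differed by less than their spread.

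**Figure D1:**
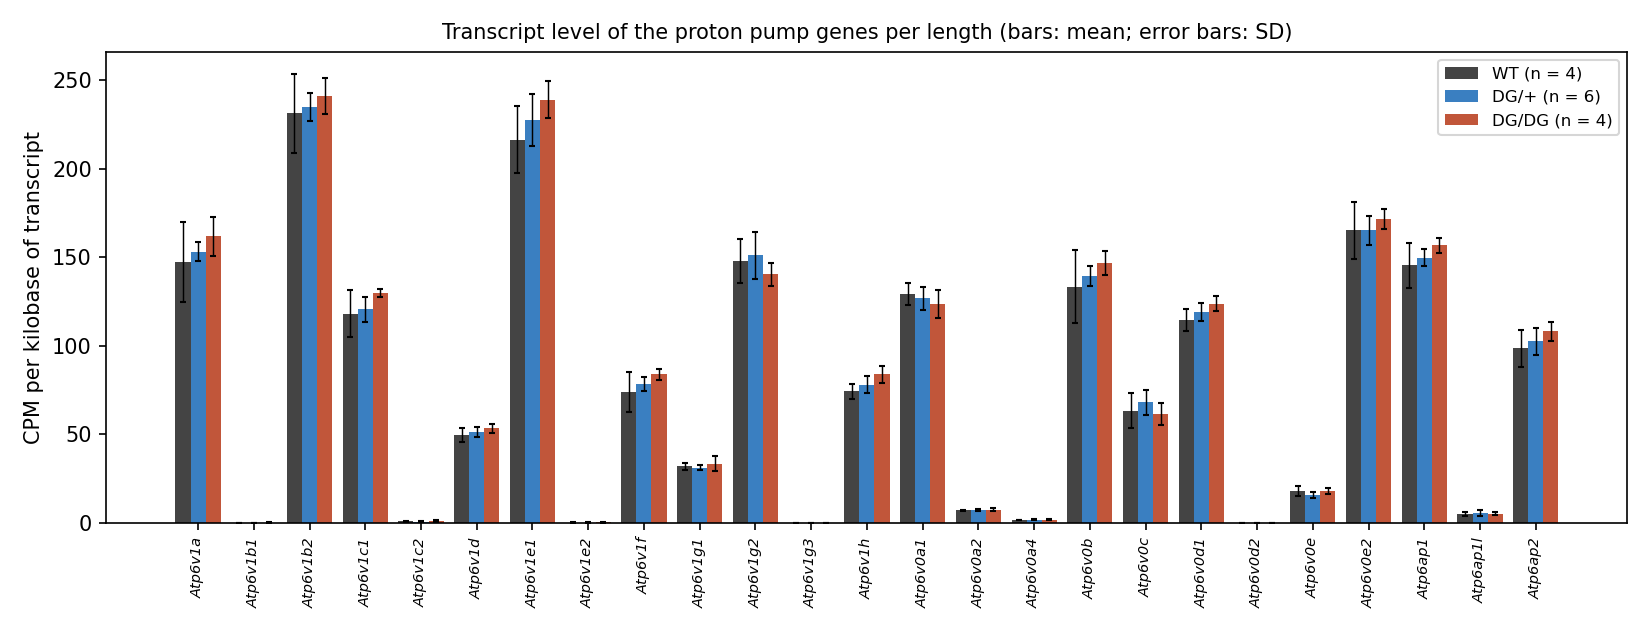
Level of the 25 proton pump genes in CPM per kilobase of transcript, as the mean of the libraries of each genotype with its SD as the error bar. Atp6v1b2 and Atp6v1e1 stand highest at 236 and 228 CPM/kb, and the 4 genes under the minimum of 1 CPM lie below all others.

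The first genotype comparison, DG/DG against WT, asked how the lysosomal genes stood with 2 mutant copies. In edgeR's quasi-likelihood test with Benjamini-Hochberg adjustment, 0 of the 52 genes passed an adjusted p of 0.05, and 0 of all 14565 tested genes did (0%). At an unadjusted p under 0.05 there were 2 genes, Atp6v1h and Hexa, both higher in DG/DG. Of all tested genes 746 (5.12%) had such a p, 2.14% in the direction higher in DG/DG and 2.98% in the direction lower. The fold change was above 0 for 17 of 21 pump genes (median 0.11 in log2) and for 12 of 22 hydrolases (median 0.0074). Over all tested genes 50.1% were above 0 and the median was 0.00028. The 95% confidence interval of a typical tested gene reached 0.28 on the log2 scale to either side.

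By sector, 9 of 10 V1 genes had a log2 fold change above 0 (median 0.13), against 5 of 8 V0 genes (median 0.045). All 3 accessory genes were above 0 (median 0.11). These counts describe genes measured in the same libraries, and the sectors were not tested against each other. Without WT 3, DG/+ 1, DG/+ 5 and DG/DG 1 the medians were 0.12 for the pump, 0.15 for V1, 0.029 for V0 and −0.031 for the hydrolases. Without WT 2, WT 3, DG/+ 2 and DG/DG 1 they were 0.10, 0.13, 0.029 and −0.029. The V0 median was −0.0023 without DG/DG 4 and 0.087 without DG/DG 2. For the hydrolases, leaving out single libraries moved the median from −0.016 (without DG/DG 1) to 0.083 (without WT 1).

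Atp6v1h (chr1:5082978-5163213), a V1 subunit that regulates ATP hydrolysis, had the smallest p of the V1 genes. Its level in WT 1 to 4 was 159, 153, 155 and 139.7 CPM, in DG/+ 144 to 173 CPM with a median of 161, and in DG/DG 1 to 4 175, 174, 179 and 157 CPM. DG/DG 1, 2 and 3 lay above every WT library and DG/DG 4 lay just below WT 1, so the groups overlapped. The log2 fold change was 0.18 (SE 0.071, 95% CI 0.026 to 0.33, unadjusted p = 0.0243, adjusted p = 0.886 by edgeR).

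Atp6v1c1 (chr15:38661904-38692444), the C subunit that links the stalks, was the 1 member of the 52 whose DG/DG and WT libraries did not overlap, and is named for that reason, which was seen after its values. Over all genes 2.62% had such groups, 1.43% with DG/DG above and 1.19% with it below. The WT libraries held 264, 248, 262 and 205 CPM, DG/+ 226 to 269 CPM with a median of 249.1, and DG/DG 271, 274, 265 and 265 CPM. The lowest DG/DG library was only slightly above WT 1, and WT 4 was far below the rest. Its log2 fold change was 0.14 (SE 0.079, 95% CI −0.032 to 0.30, adjusted p = 0.886 by edgeR).

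Atp6v1f, a subunit of the rotor, stood at 51.9 ± 7.93, 55.0 ± 2.71 and 58.8 ± 2.26 CPM in WT, DG/+ and DG/DG (SD), a log2 fold change of 0.18 between DG/DG and WT (SE 0.091, unadjusted p = 0.0685 by edgeR). For Atp6v1e1 the values were 284 ± 24.8, 299 ± 18.99 and 314 ± 13.7 CPM, a log2 fold change of 0.14 (SE 0.075, unadjusted p = 0.0757 by edgeR). The difference was smaller than the SD of WT for Atp6v1f and slightly larger for Atp6v1e1. The gene with the highest level of the sector, Atp6v1b2 (chr8:69088736-69113718), held 662, 624, 737 and 590.1 CPM in WT, 631 to 697 CPM with a median of 661 in DG/+, and 689, 640.1, 689.6 and 705 CPM in DG/DG. The genotypes overlapped fully, with WT 3 the highest and WT 4 the lowest of all libraries (log2 fold change 0.060, SE 0.071). Atp6v1g2 was the only V1 gene with a fold change below 0 (−0.076, SE 0.083), and Atp6v1c2, at about 1 CPM, was too low to read (0.47, 95% CI −0.70 to 1.64).

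**Figure D2:**
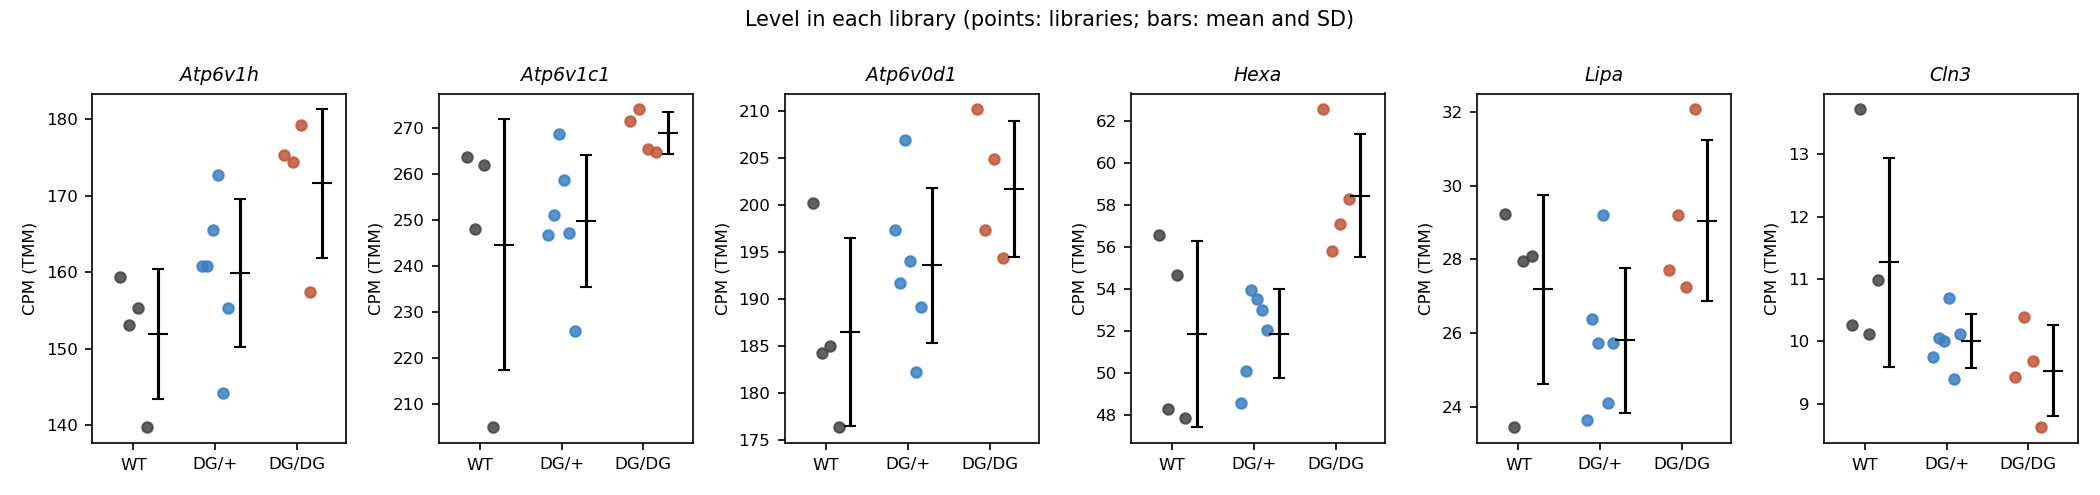
Level in CPM of Atp6v1h, Atp6v1c1, Atp6v0d1, Hexa, Lipa and Cln3 in every library, grouped by genotype, with the mean and SD beside the points. For Hexa the 4 DG/DG libraries lie above all 6 DG/+ libraries, and for Cln3 the WT spread rests on WT 2 at 13.7 CPM.

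In the V0 sector the smallest p belonged to Atp6v0d1 (chr8:105524461-105566064), which couples the rotor to the membrane ring. It held 200.3, 184, 185 and 176 CPM in WT, 182 to 207 CPM with a median of 193 in DG/+, and 210.2, 197, 205 and 194 CPM in DG/DG. WT 1 lay within the DG/DG range and the other 3 WT libraries below it. The log2 fold change was 0.11 (SE 0.062, 95% CI −0.019 to 0.25, adjusted p = 0.886 by edgeR). Atp6v0b, a proteolipid of the membrane ring whose promoter is printed above, stood at 133 ± 20.8 CPM in WT and 147 ± 6.75 in DG/DG (log2 fold change 0.14, SE 0.089). Its difference was smaller than the SD of WT. Atp6ap1, an accessory protein needed for assembly of the pump, stood at 318 ± 27.8, 328 ± 10.5 and 343 ± 9.35 CPM in WT, DG/+ and DG/DG (log2 fold change 0.11, SE 0.067). Atp6v0e2 (chr6:48537569-48541801), the V0 gene with the highest level per kilobase, held 308, 278, 329.6 and 267 CPM in WT, 273 to 311 CPM with a median of 299 in DG/+, and 309, 304, 296 and 320.2 CPM in DG/DG. Here WT held both the highest and the lowest library, and the log2 fold change was 0.055 (SE 0.073).

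The size of the pump's fold changes in DG/DG against WT depended in part on 1 library. WT 4 was the lowest of all 14 libraries in 12 of the 21 pump genes (57.1%), 9 of the 22 hydrolases (40.9%) and 4 of the 7 membrane proteins, against 12.5% of all tested genes. Without WT 4 the median log2 fold change of the pump genes was 0.059, with 16 of 21 above 0. For the V1 genes it was 0.060, with 9 of 10 above 0. GC content also moved with the fold changes across genes (Spearman's rho of −0.292 over 14314 genes, which are not independent and share the same libraries). Median GC content was 48.6% for V1 genes and 53.3% for V0 genes, and 50.55% for the whole pump against 50.51% for all tested genes. For transcript length the same rho was −0.113, and the median length was 1789 bases for the pump and 3026 for all tested genes. With an offset for GC content and transcript length fitted in each library, the median was 0.064 for the pump, with 15 of 21 above 0, and 0.082 for the V1 genes.

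The hydrolases were also counted by substrate. A log2 fold change above 0 was found for 6 of 8 proteases (median 0.072), 4 of 4 lipid-degrading enzymes (median 0.058) and 2 of 10 glycan-degrading enzymes (median −0.036). Hexa and Galc, which act on lipids that carry sugars, were counted as glycan-degrading, with log2 fold changes of 0.17 and −0.21. The counts of these classes therefore depend on where such enzymes are placed. Median GC content was 53.1% for the proteases, 45.2% for the lipid-degrading enzymes and 54.2% for the glycan-degrading ones. Its part in these counts was not tested.

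Hexa (chr9:59539540-59565109), the alpha subunit of beta-hexosaminidase, which degrades gangliosides, had the smallest p of the hydrolases. It held 56.6, 48.3, 54.7 and 47.9 CPM in WT, 48.6 to 54.0 CPM with a median of 52.5 in DG/+, and 62.6, 55.8, 57.1 and 58.3 CPM in DG/DG. WT 1 lay within the DG/DG range. The log2 fold change was 0.17 (SE 0.072, 95% CI 0.018 to 0.32, unadjusted p = 0.0309, adjusted p = 0.886 by edgeR), and it was 0.16 without WT 3, DG/+ 1, DG/+ 5 and DG/DG 1 and 0.13 without WT 2, WT 3, DG/+ 2 and DG/DG 1.

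Lgmn, the asparaginyl endopeptidase that also matures cathepsins, stood at 104 ± 16.9, 107 ± 5.64 and 116 ± 9.93 CPM in WT, DG/+ and DG/DG (log2 fold change 0.15 against WT, SE 0.097). Galc, which removes galactose from myelin lipids, ran the other way at 21.2 ± 3.79, 20.1 ± 2.36 and 18.3 ± 0.649 CPM (−0.21, SE 0.13). In both the difference was smaller than the SD of WT. Ctsd (chr7:142375910-142387827), the aspartyl protease cathepsin D and the hydrolase with the highest level per kilobase (175 CPM/kb), held 416, 339, 393 and 309 CPM in WT, 350.0 to 394 CPM with a median of 369 in DG/+, and 409, 341, 403 and 382 CPM in DG/DG. WT spanned all other libraries, and the log2 fold change was 0.074 (SE 0.091). Exons of other annotated genes, on either strand, overlapped 34.4% of Ctsd's exon bases, and the gene with the largest overlap was on the same strand. Whether the counting used strand is not given in the sources used here.

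Cln3 (chr7:126571207-126585817), a membrane protein whose loss causes juvenile Batten disease, had the smallest p of its class. It held 10.3, 13.7, 10.1 and 10.98 CPM in WT, 9.41 to 10.7 CPM with a median of 10.04 in DG/+, and 9.43, 10.4, 9.68 and 8.63 CPM in DG/DG. WT 2 stood above all other libraries and the groups overlapped. The log2 fold change was −0.24 (SE 0.11, 95% CI −0.48 to 0.00089, unadjusted p = 0.0508, adjusted p = 0.886 by edgeR), and without WT 2 it was −0.13. Scarb2, the receptor that carries beta-glucocerebrosidase to the lysosome, stood at 119 ± 9.61 CPM in WT and 126 ± 2.71 in DG/DG (0.075, SE 0.066). Npc1, which exports cholesterol, stood at 108 ± 8.24 and 114 ± 8.73 CPM (0.072, SE 0.070). Lamp1 (chr8:13159161-13175338), the abundant coat protein of the membrane whose promoter held 4 motif copies, had 307, 266, 283 and 247 CPM in WT, 266 to 295 CPM with a median of 288 in DG/+, and 303, 271, 314 and 275 CPM in DG/DG. The groups overlapped (log2 fold change 0.076, SE 0.077). Over the 7 membrane proteins 4 were above 0, with a median of 0.043, and with the offset for GC content and length the median was −0.019.

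The cofactors had close to equal levels in the 3 genotypes. Psap (chr10:60277628-60302600), which encodes the precursor of the saposins that present sphingolipids to hydrolases, was the most abundant of all 52 genes at 629 CPM/kb. It held 1787, 1554, 1778 and 1386 CPM in WT, 1626 to 1791 CPM with a median of 1663 in DG/+, and 1749, 1504, 1791 and 1686 CPM in DG/DG. WT 4 was the lowest library and the groups overlapped (log2 fold change 0.049, SE 0.084, adjusted p = 0.949 by edgeR). Npc2, which hands cholesterol to Npc1, stood at 48.8 ± 7.61, 50.6 ± 2.69 and 50.3 ± 5.10 CPM in WT, DG/+ and DG/DG (0.040, SE 0.10). The sign of both depended on single libraries: without WT 4 the log2 fold changes were −0.020 for Psap and −0.011 for Npc2.

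**Figure D3:**
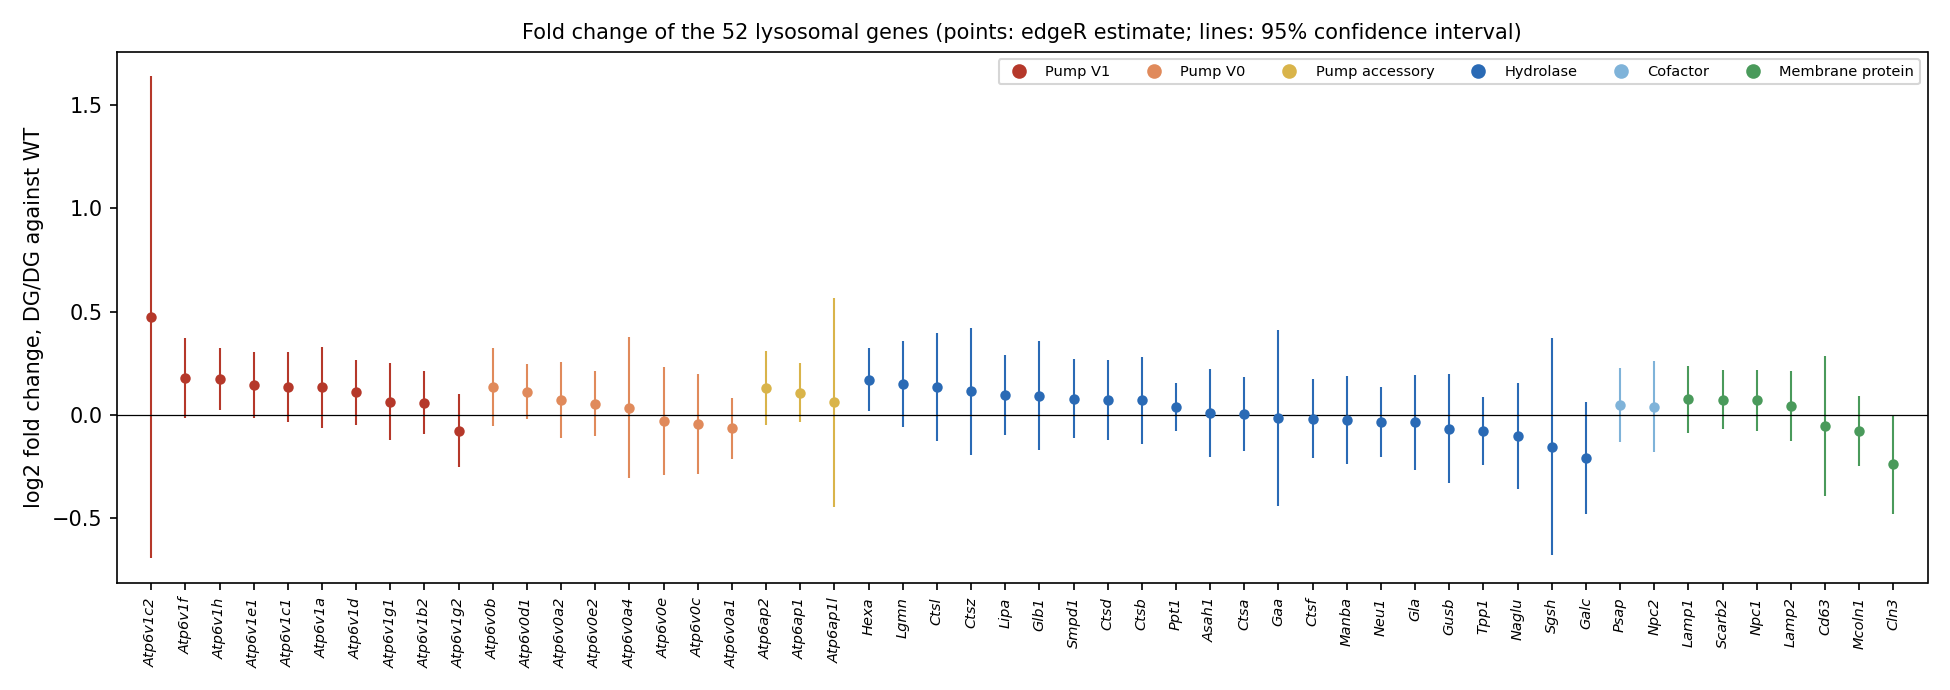
Log2 fold change of DG/DG against WT for the 52 genes by class, with the 95% confidence interval of the quasi-likelihood fit. Of the 21 pump genes 17 have a value above 0, of the 22 hydrolases 12, and only the intervals of Atp6v1h and Hexa lie wholly on 1 side of 0.

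The second comparison, DG/+ against WT, asked how the same genes stood with 1 mutant copy. It uses the same 4 WT libraries as the first, so its values are given beside those of the first and are not independent of them. None of the 52 genes passed the adjusted threshold (0 of 14565 over all genes, 0%), and 0 had an unadjusted p under 0.05 in edgeR, DESeq2 or limma-voom. Over all genes 233 (1.6%) had such a p in edgeR, 0.755% higher and 0.844% lower in DG/+. The fold change was above 0 for 16 of 21 pump genes (median log2 fold change 0.053) and 12 of 22 hydrolases (median 0.0069), against 47.3% of all genes with a median of −0.0068. By sector it was above 0 for 8 of 10 V1 genes (median 0.041) and 5 of 8 V0 genes (median 0.059). Here the V0 median was the larger, unlike in DG/DG against WT. No member had groups that did not overlap, against 0.316% of all genes. The pump's median was 0.081 without WT 1 and 0.086 without WT 3. Without WT 4 it was 0.0025 with 11 of 21 above 0, and that of the hydrolases −0.038 with 5 of 22 above 0. The V1 median was then −0.010, with 5 of 10 above 0, and the V0 median 0.017.

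Of the V1 genes, the smallest p belonged to Atp6v1h, Atp6v1e1 and Atp6v1f. The log2 fold change was 0.073 (SE 0.064) for Atp6v1h, 0.072 (SE 0.069) for Atp6v1e1 and 0.082 (SE 0.084) for Atp6v1f. In V0, Atp6v0e, the less abundant form of the small e subunit, stood at 14.8 ± 2.22 CPM in WT and 13.02 ± 1.37 in DG/+ (−0.19, SE 0.11). Atp6v0a4, an a subunit known mainly from kidney, stood at 5.06 ± 0.678 and 5.71 ± 0.656 CPM (0.18, SE 0.15). Without WT 3, DG/+ 1, DG/+ 5 and DG/DG 1 its log2 fold change was 0.020, and that of Atp6v0e was −0.0885. For Atp6v0c, the main proteolipid of the ring, the levels were 74.9 ± 11.9 and 80.4 ± 8.35 CPM (0.10, SE 0.10), and these reads are shared with the pseudogene named above. For all 6 genes the means of WT and DG/+ differed by less than the SD of WT.

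Among the hydrolases, Manba, which trims mannose from glycans, stood at 16.1 ± 1.70 CPM in WT and 14.6 ± 1.197 in DG/+ (−0.14, SE 0.092). Tpp1, a protease that removes tripeptides, stood at 51.0 ± 2.96 and 47.5 ± 3.93 CPM (−0.10, SE 0.071). Gaa, which degrades glycogen, stood at 384 ± 118 and 325 ± 27.3 CPM (−0.24, SE 0.18). Gaa varied widely between libraries, with 497, 287, 476 and 277 CPM in WT, 298 to 375 CPM with a median of 319.5 in DG/+, and 324, 291, 510.3 and 396 CPM in DG/DG. Its WT libraries formed a high and a low pair, and the log2 fold change of DG/+ against WT was −0.092 without WT 1, −0.12 without WT 3, −0.36 without WT 2 and −0.37 without WT 4. Of the membrane proteins, Cln3 had a log2 fold change of −0.17 (SE 0.10), Npc1 of 0.056 (SE 0.064) and Lamp1 of 0.035 (SE 0.070). Psap stood at 0.056 (SE 0.077) and Npc2 at 0.050 (SE 0.094).

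The third comparison, DG/DG against DG/+, set 2 mutant copies against 1. No gene passed the adjusted threshold (0 of 14565, 0%). Of the 52 genes 1 had an unadjusted p under 0.05, Hexa, against 481 genes or 3.3% of all, 1.68% higher and 1.62% lower in DG/DG. The fold change was above 0 for 16 of 21 pump genes (median 0.066), 9 of 10 V1 genes (median 0.088), 5 of 8 V0 genes (median 0.033) and 13 of 22 hydrolases (median 0.024), against 50.6% of all genes and a median of 0.0023. Its fold changes do not use the WT libraries, and so not WT 4, but it shares the DG/DG libraries with the first and its error comes from all 14 libraries. The pump's median was 0.033 with the offset for GC content and length, 0.039 without WT 3, DG/+ 1, DG/+ 5 and DG/DG 1 and 0.044 without DG/+ 5, and that of V1 was 0.040 with the offset. The V0 median was 0.0043 without DG/+ 5, −0.0038 without DG/DG 1 and 0.00019 without those 4 libraries. For the hydrolases it was −0.0050 without DG/DG 1 and 0.064 without DG/DG 2.

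Hexa stood at 51.9 ± 2.12 CPM in DG/+ and 58.5 ± 2.93 CPM in DG/DG, and all 4 DG/DG libraries lay above all 6 DG/+ libraries. It was the 1 gene of the 52 without overlap, against 1.21% of all genes, 0.803% with DG/DG above and 0.405% with it below. The log2 fold change was 0.17 (SE 0.066, 95% CI 0.033 to 0.31, unadjusted p = 0.0182, adjusted p = 0.972 by edgeR), and without DG/DG 1, the highest library, it was 0.14. Lipa, the lysosomal acid lipase that frees cholesterol, held 23.6 to 29.2 CPM in DG/+ with a median of 25.7, and 27.7, 29.2, 27.3 and 32.1 CPM in DG/DG. The groups overlapped, with a log2 fold change of 0.17 (SE 0.083, unadjusted p = 0.0555 by edgeR). Lgmn had a log2 fold change of 0.11 (SE 0.090).

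In the V1 sector Atp6v1h stood at 0.10 (SE 0.064) and Atp6v1c1 at 0.11 (SE 0.072) in log2 fold change, while Atp6v1g2 stood at −0.11 (SE 0.076) with 231 ± 20.4 CPM in DG/+ and 214 ± 10.2 in DG/DG. For Atp6v0e the value was 0.16 (SE 0.11), for Atp6v0c −0.15 (SE 0.10) and for Atp6ap1 0.066 (SE 0.061). Of the membrane proteins, Scarb2 stood at 0.072 (SE 0.060), Mcoln1, a cation channel of the lysosome, at −0.064 (SE 0.073) and Cln3 at −0.069 (SE 0.10). Psap was at −0.0072 (SE 0.077) and Npc2 at −0.0099 (SE 0.094).

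A slope over 0, 1 and 2 DG copies was fitted as well. It called 0 of 14565 genes at an adjusted p of 0.05 (0%). At an unadjusted p under 0.05 it gave 3 of the 52 genes, against 5.65% of all genes (2.42% with a slope above 0 and 3.23% with one below): Atp6v1h at 0.088 per copy on the log2 scale (SE 0.034, unadjusted p = 0.0192), Hexa at 0.086 (SE 0.037, unadjusted p = 0.0333) and Cln3 at −0.12 (SE 0.055, unadjusted p = 0.0433), with an adjusted p of 0.845 for each by edgeR. The slope was above 0 for 17 of 21 pump genes and 12 of 22 hydrolases, against 50% of all genes. For Hexa the mean was 51.8 ± 4.43 CPM in WT and 51.9 ± 2.12 CPM in DG/+, so the slope came from DG/DG. Vcp itself stood at 97.3 ± 8.32, 99.99 ± 4.58 and 111 ± 4.59 CPM in WT, DG/+ and DG/DG.

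**Figure D4:**
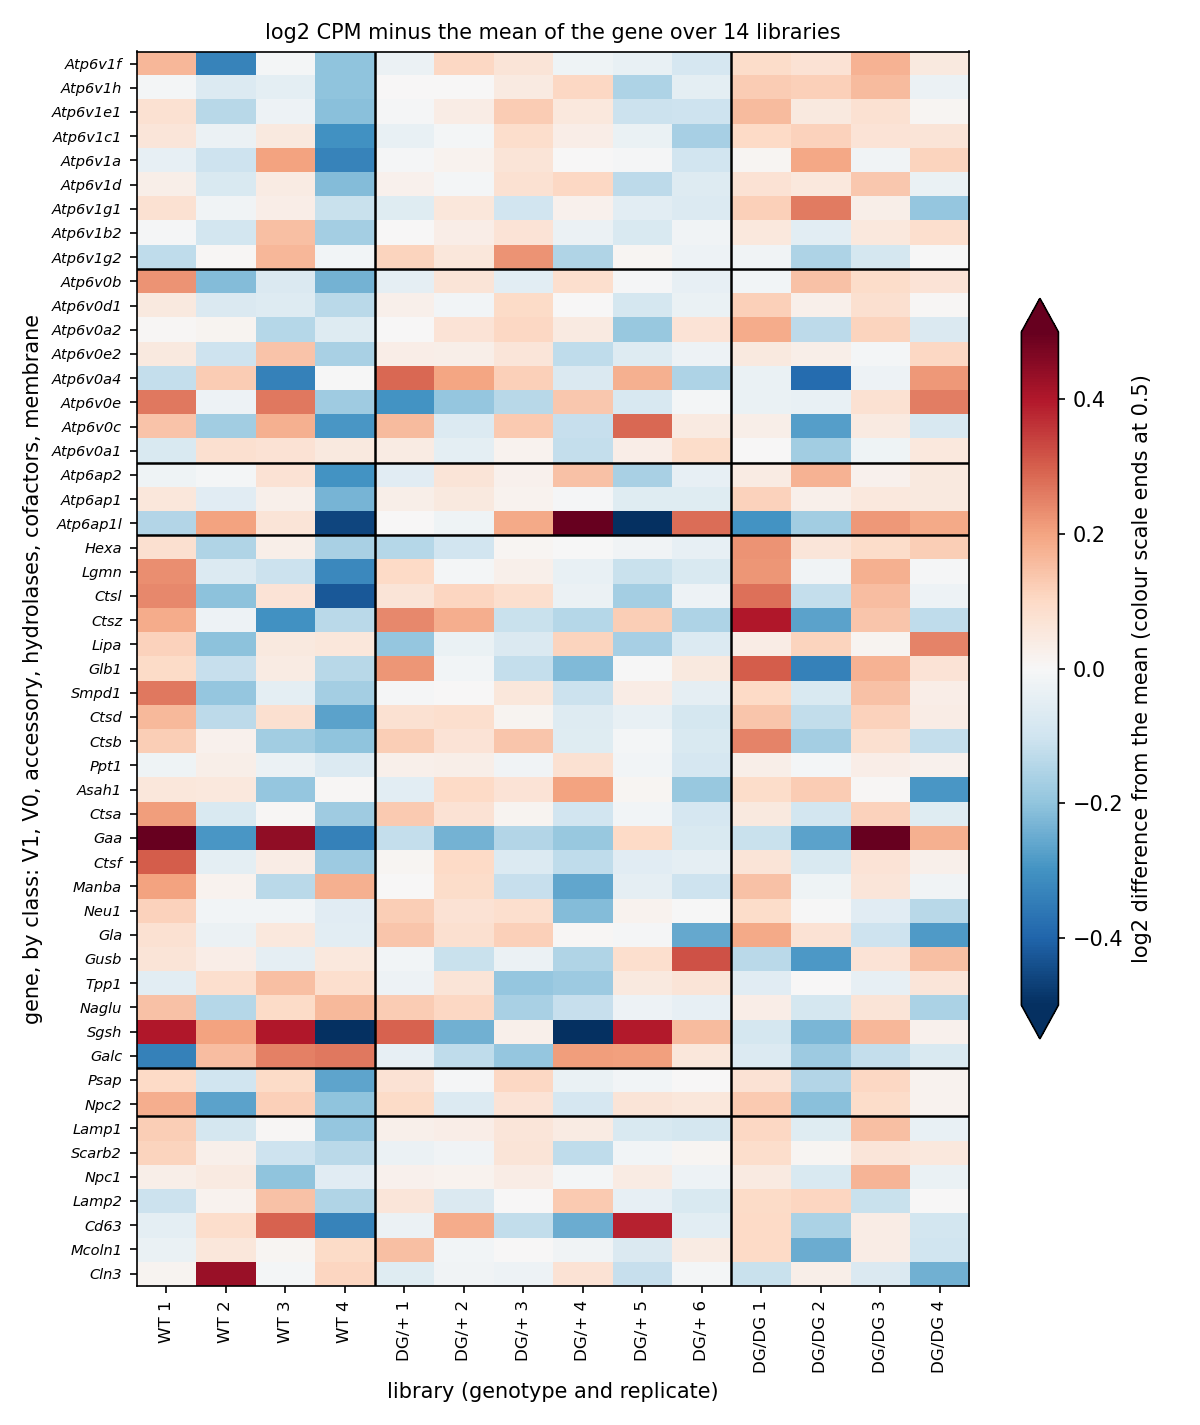
Log2 CPM of 51 of the 52 genes (those with a mean of at least 5 CPM) in each of the 14 libraries, as the difference from the mean of the gene, with the colour scale ending at 0.5 to either side. WT 4 is low across most pump genes and many hydrolases, and Gaa is high in WT 1 and WT 3 and low in WT 2 and WT 4.

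To set the pump against the hydrolases within a library, the mean log2 CPM of the 22 hydrolases was taken from that of the 21 pump genes. In WT 1 to 4 this difference was 0.83, 0.84, 0.96 and 0.80 (0.86 ± 0.069, mean ± SD). In DG/+ it was 0.92 ± 0.091 and ranged from 0.79 to 1.04. In DG/DG 1 to 4 it was 0.83, 0.99, 0.92 and 1.03 (0.94 ± 0.089). Over all 14 libraries the 3 genotypes overlapped, and the mean of DG/DG exceeded that of WT by 0.084. This was between the SD of WT and that of DG/DG. Leaving out single libraries moved this difference between 0.055 (without DG/DG 4) and 0.12 (without DG/DG 1). It was 0.040 with the offset for GC content and length and 0.16 without either set of 4 libraries named above. Without WT 3, DG/+ 1, DG/+ 5 and DG/DG 1, a set chosen after the data were seen, WT lay below both other genotypes. The ranges were 0.80 to 0.84 in WT (n = 3), 0.90 to 1.04 in DG/+ (n = 4) and 0.92 to 1.03 in DG/DG (n = 3). Without WT 2, WT 3, DG/+ 2 and DG/DG 1 they were 0.80 to 0.83 (n = 2), 0.79 to 1.04 (n = 5) and 0.92 to 1.03 (n = 3). No p is given for a score over chosen genes.

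Taken apart, the mean log2 CPM of the V1 genes was 6.80 ± 0.21, 6.86 ± 0.064 and 6.96 ± 0.060 in WT, DG/+ and DG/DG. For V0 it was 6.19 ± 0.083, 6.22 ± 0.022 and 6.23 ± 0.075. The hydrolases stood at 5.63 ± 0.11, 5.62 ± 0.049 and 5.65 ± 0.089, and the membrane proteins at 5.69 ± 0.073, 5.69 ± 0.021 and 5.68 ± 0.064. The V1 mean was swayed by Atp6v1c2 at about 1 CPM. With the members under 10 CPM left out, a step chosen after the data were seen, it was 7.57 ± 0.12, 7.62 ± 0.057 and 7.68 ± 0.033, and the pump stood at 7.30 ± 0.12 in WT (7.15 to 7.40), 7.33 ± 0.037 in DG/+ and 7.38 ± 0.021 in DG/DG (7.36 to 7.41). WT was the most spread group and contained the range of DG/DG almost entirely. The difference of pump and hydrolases was then 1.40 ± 0.061, 1.45 ± 0.053 and 1.46 ± 0.069.

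**Figure D5:**
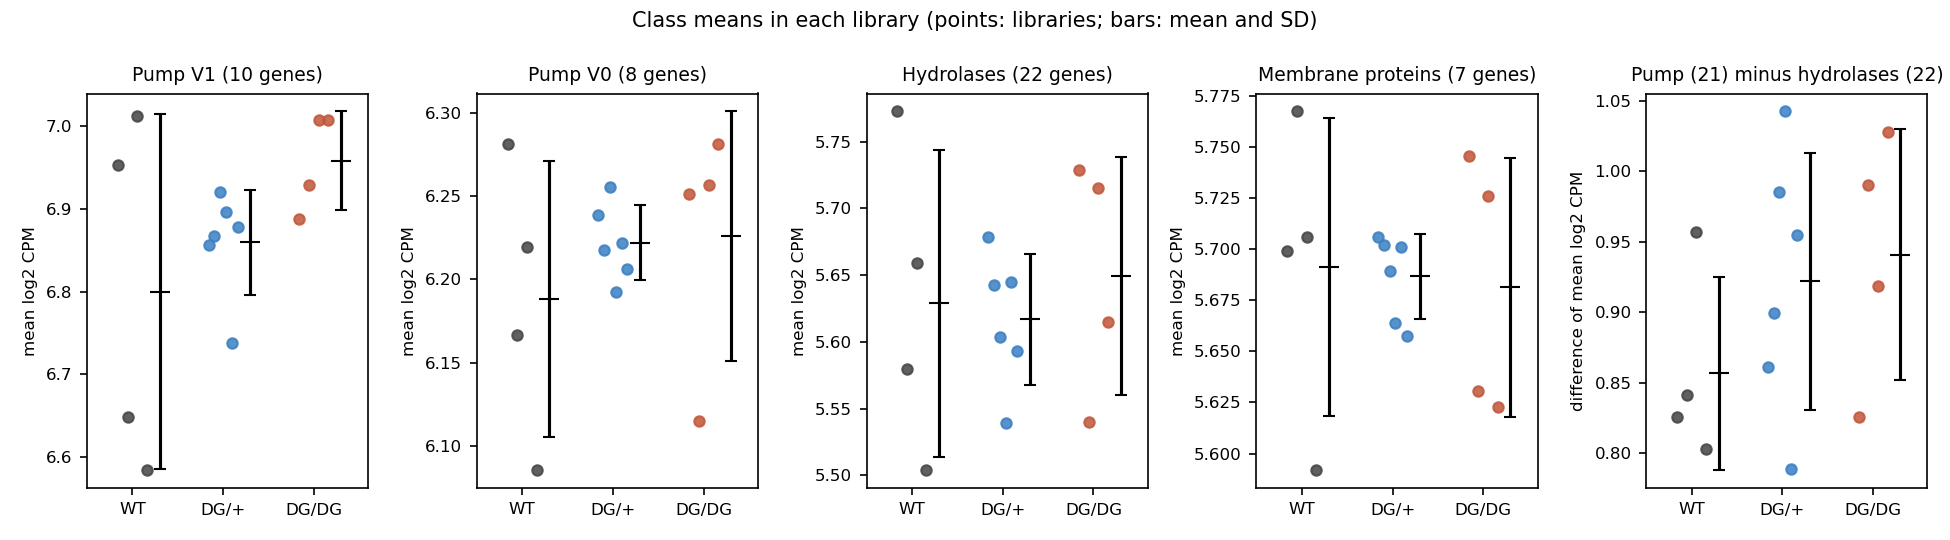
Mean log2 CPM of the V1 genes (10), V0 genes (8), hydrolases (22) and membrane proteins (7), and the pump mean minus the hydrolase mean, in each library by genotype with mean and SD. The genotypes overlap in every panel, and the difference of pump and hydrolases averages 0.86, 0.92 and 0.94 in WT, DG/+ and DG/DG.

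Fold changes were also set out by whether the promoter window held TCACGTG. In DG/DG against WT the median log2 fold change was 0.0065 for the 15 genes with it (8 above 0) and 0.046 for the 28 without (18 above 0). In DG/+ against WT the medians were 0.0079 and 0.017, and in DG/DG against DG/+ 0.047 and 0.038, so neither set had the larger median throughout. Lamp1 with 4 copies and Atp6v0b with 2 had log2 fold changes of 0.076 and 0.14 in the first comparison, and Glb1, Gaa, Lgmn and Atp6v1a with 1 each 0.093, −0.014, 0.15 and 0.13.

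Other lysosomal genes, taken from lists written by function, gave 0 calls in any comparison at an adjusted p of 0.05 by edgeR. Of 28 further lysosomal enzymes 22 had a log2 fold change above 0 in DG/DG against WT (median 0.051) and 16 in DG/+ against WT. Ctss, the protease cathepsin S found mainly in microglia, stood at 61.3 ± 6.65, 63.6 ± 5.27 and 72.2 ± 9.35 CPM in WT, DG/+ and DG/DG (log2 fold change 0.23 in DG/DG against WT, SE 0.10, unadjusted p = 0.0358 by edgeR). Its highest library was DG/DG 1, at 85.6 CPM. In DG/+ against WT Hyal2, which degrades hyaluronan, stood at −0.22 (SE 0.12). In DG/DG against DG/+ Ctss stood at 0.18 (SE 0.093) and Fuca1, a fucosidase, at 0.22 (SE 0.13).

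Of 19 tested genes among 20 further membrane proteins, 8 were above 0 in DG/DG against WT (median −0.016). The smallest p belonged to Tpcn1, a cation channel (−0.31, SE 0.15), and Abca2, a lipid transporter (−0.16, SE 0.086). In DG/+ against WT it belonged to Cd68, a microglial membrane protein (0.21, SE 0.13), and Clcn7, a chloride-proton exchanger (−0.088, SE 0.063). In DG/DG against DG/+ it belonged to Tpcn2 (−0.50, SE 0.29) and Abca2 (−0.12, SE 0.079).

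Of 18 genes that sort enzymes to the lysosome 10 were above 0 in DG/DG against WT (median 0.025), and 3 had an unadjusted p under 0.05, against 5.12% of all genes (2.14% higher and 2.98% lower in DG/DG). M6pr, a receptor for mannose 6-phosphate, stood in DG/DG at 104 ± 7.21 CPM against 89.0 ± 12.6 in WT and 92.1 ± 4.87 in DG/+ (0.22, SE 0.090). Gga3, an adaptor that loads such receptors into vesicles, stood at 54.4 ± 3.16 CPM against 65.5 ± 10.4 in WT (−0.26, SE 0.10). Gga1, a related adaptor named because it completes the 3, stood at −0.24 (SE 0.11), and its lowest WT library, at 44.4 CPM, lay above its highest DG/DG library, at 41.2 CPM. Against DG/+ the values were 0.17 (SE 0.082) for M6pr and −0.21 (SE 0.095) for Gga3. In DG/+ against WT the retromer genes Vps26a and Vps35 had the smallest p, each at 0.10.

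Of 12 genes for assembly and regulation of the pump 9 were above 0 in DG/DG against WT (median 0.045) and 6 in DG/+ against WT. Tmem9, which regulates the pump, stood at 0.17 (SE 0.11) against WT and at 0.20 (SE 0.10) against DG/+. Vma21, an assembly chaperone, stood at 0.18 (SE 0.13) in DG/+ against WT. Of 15 tested genes of lysosomal signalling 8 were above 0 (median 0.030). Rptor, a subunit of the mTORC1 kinase complex, held 128, 134, 128 and 142 CPM in WT and 126, 110.4, 121 and 127 CPM in DG/DG, groups that, as for Gga1, did not overlap (−0.14, SE 0.076), against 1.19% of all genes with DG/DG below WT. Rragc, a GTPase that recruits that complex, stood at 0.12 (SE 0.069) in DG/DG against WT, and Rragd at 0.25 (SE 0.15) in DG/+ against WT.

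Markers of microglia, phagocytic cells rich in lysosomes, were counted beside these genes. Of 15 listed markers 14 had a log2 fold change above 0 in DG/DG against WT (median 0.21), 13 in DG/+ against WT (median 0.13) and 13 in DG/DG against DG/+ (median 0.079). Their summed level was 383 to 444 CPM in WT, 403 to 497 in DG/+ and 413 to 536 in DG/DG, highest in DG/DG 1, the library that was also highest for Hexa and Ctss. Excitatory neuron markers were above 0 for 2 of 9 in DG/DG against WT (median −0.20), astrocyte markers for 7 of 9 (median 0.094) and oligodendrocyte markers for 4 of 12 (median −0.050). In DG/+ against WT the counts were 7 of 9 for excitatory neurons (median 0.071), 2 of 9 for astrocytes (median −0.036) and 11 of 12 for oligodendrocytes (median 0.076). In DG/DG against DG/+ they were 1 of 9 (median −0.19), 8 of 9 (median 0.13) and 0 of 12 (median −0.11). Their part in the lysosomal values was not tested.

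The authors' deposited table of fold changes listed 0 of the 52 genes at a false discovery rate under 0.05 and 0 at a p under 0.05. In the authors' deposited table the median log2 fold change of the pump genes was 0.12 in DG/DG against WT and 0.066 in DG/+ against WT, with 17 of 21 above 0 in each, and that of the hydrolases 0.019 and 0.020.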

How the data were processed

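RNA from the anterior cortex of 14 mice was sequenced, 1 library per mouse, with genotype groups taken from the labels. Per the labels' protocols, RNeasy columns gave the total RNA and the library preparation was Illumina's standard one. The authors deposited raw read counts of 24939 RefSeq transcripts, log2 values that the authors normalized by an unstated method, and the authors' edgeR log2 fold changes with their p-values and false discovery rates. Of builds and tools, mm10 and edgeR (no version) are named, per the submitters' processing notes. Aligner, counting tool and strand setting are not given in the sources at hand.

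The tests started from the deposited counts. Per symbol, the transcript with the largest summed count was kept. In R 4.3.3 with edgeR 4.0.16, genes passing filterByExpr (14565) were scaled by TMM and fitted in all 14 libraries with robust quasi-likelihood, and p-values were Benjamini-Hochberg adjusted over all of them. Levels are TMM-scaled CPM, and mean log2 CPM used a prior count of 2. The slope per DG copy came from a further fit. The procedure was tested on simulated data. Precision is given as the 95% confidence interval, at 8.65 to 15.91 M counts per library.

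The labels give no pairing of replicates. Alternatives were DESeq2 1.42.0, limma-voom (limma 3.58.1), other size factors, other filters, only the genotypes compared, a replicate block, an offset for GC content and length, every transcript, the authors' log2 values, and leaving out libraries. Sequences, starts and coordinates are from RefSeq tables of GRCm38.p6, and exon overlaps, lengths and GC content from GENCODE. Named genes are, per comparison, the 3 members with the smallest p in each class and both cofactors, with every library shown for the smallest p in DG/DG against WT and the highest level per class, plus up to 2 members of each further list. A gene of those lists that the rule takes is not reported here. Others were chosen after their values were seen. Members and lists were chosen with earlier results of these data known. The level per kilobase divides CPM by transcript length.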

Additional observations from a re-analysis of the deposited data

Results flagged for a closer look

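In 105 groups of values, each genotype's libraries were checked for a library set apart from the rest, which chance produces in about 1 in 20 groups, and 2 groups held one. Both were the same library. The mean log2 CPM of the V1 genes was 6.738 in DG/+ 5, below the other DG/+ libraries at 6.856 to 6.92. The mean of the 21 pump genes was 6.434 in DG/+ 5, below the others at 6.54 to 6.589. With members under 10 CPM left out, the V1 mean of DG/+ 5 was 7.55 and that of DG/+ 6 was also 7.55. DG/+ 5 had choroid plexus markers at 1155 CPM in sum, and the part of these in the low value was not tested.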

How the results depend on the processing

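No gene and none of the 52 members passed the adjusted threshold under any setting tried. At an unadjusted p under 0.05, edgeR gave 746, 233 and 481 genes in DG/DG against WT, DG/+ against WT and DG/DG against DG/+, DESeq2 727, 211 and 473, and limma-voom 634, 254 and 495. Members among them were 2, 0 and 1 with each tool. Of 1215 recomputed log2 fold changes of the named genes, 1195 kept their direction and 20 changed sign, from values of at most 0.082 in size.

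Correlations of same-numbered deviations ran from −0.2153 to 0.2921, with 6 of 12 over 0.1 and 5 of 12 best with their own number. They were not set against chance, so they do not decide whether replicate numbers pair the samples. In WT the labels' mouse numbers and replicate numbers do not all match. The fit with the replicate number as a block used only numbers present in every genotype, and so left out DG/+ 5 and DG/+ 6. In it 0 members were called in each comparison. The pump's median was 0.081 in DG/+ against WT and 0.030 in DG/DG against DG/+ (0.020 with the GC and length offset as well, and 0.027 for V1). Npc2 in DG/DG against DG/+ became 0.0064 (0.0044 with block and offset). The block and the loss of these libraries cannot be told apart in these values.

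The other sign changes came from leaving out libraries or from the GC and length offset. In DG/DG against WT, leaving out 1 library moved Npc2 from −0.032 (without WT 2) to 0.12 and Psap from −0.020 (without WT 4) to 0.099. Npc2 was −0.011 without WT 4, −0.00043 without DG/DG 1 and −0.031 without WT 2, WT 3, DG/+ 2 and DG/DG 1. In DG/+ against WT the lowest and highest values were −0.022 (without WT 2) and 0.13 for Npc2, and, each lowest without WT 4, −0.013 and 0.10 for Psap, −0.014 and 0.091 for Lamp1, and −0.019 and 0.070 for Vcp. Npc2 was −0.0012 without WT 4, and Atp6v1f −0.018 without WT 2, WT 3, DG/+ 2 and DG/DG 1. Npc1 was −0.0069 without the 4 libraries over 1000 CPM of choroid plexus or pituitary markers, a setting chosen after the data were seen. In DG/DG against DG/+ Npc2 ranged from −0.051 to 0.058 and Psap from −0.039 to 0.043 (both highest without DG/DG 2), and Psap was 0.010 with the GC and length offset. The cause was not tested.

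The pump minus hydrolase difference between DG/DG and WT was 0.040 to 0.16 over the settings that did not leave out a single library, that between DG/+ and WT 0.043 to 0.15, and that between DG/DG and DG/+ −0.016 (with the offset) to 0.053. Without WT 4 the pump's median in DG/+ against WT was 0.0025. Depth and 4 to 6 mice per group limit a typical interval to about 0.28 to either side on the log2 scale for DG/DG against WT. For the other pairs it is about 0.25 to either side, over all tested genes.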

Other observations

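Lamp2, a membrane protein with alternatively spliced forms, was listed with a further transcript whose reads were 71.3% of those of the form used. That share was 71.4% ± 2.37, 71.2% ± 1.22 and 71.3% ± 2.81 in WT, DG/+ and DG/DG (SD). Atp6v0c and its pseudogene moved as 1 gene, with log2 fold changes of −0.045 and −0.046 in DG/DG against WT. Exons of 20 of the 52 genes overlapped exons of another annotated gene on either strand. For 3 this was over more than 20% of their exon bases: Ctsd (34.4%), Ctsl (32.9%) and Sgsh (21.6%). The gene with the largest overlap was on the same strand for Ctsd and on the opposite strand for Ctsl and Sgsh.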
